A study of Homo sapiens with 6 samples.

Results

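The machinery that copies DNA in S phase was followed in ME-1 cells with and without added SPNS2, through 44 genes listed by function and found in the count table by Ensembl identifier. All 44 had a row of their own among 34371 features, and all 44 passed the filter on low counts. ME-1 cells are an established human line from acute myeloid leukaemia, known to carry the CBFB::MYH11 fusion. Cells were transduced with an empty vector (3 libraries) or with a vector for SPNS2, an exporter of sphingosine-1-phosphate (3 libraries), and transduced cells were selected before polyadenylated RNA was sequenced. The labels give no time, dose, clone or culture number for either group, and they do not say whether the replicates were grown separately, so the p-values measure only the spread between these libraries, which may be technical.

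DNA replication begins when the origin recognition complex, CDC6 and CDT1 load the MCM2 to MCM7 ring onto origins, a step called licensing that geminin (GMNN) blocks once S phase has started. CDC45 and the GINS complex then join MCM to form the active helicase, primase and polymerase alpha lay down primers, and polymerases delta and epsilon copy the strands on the PCNA clamp. Many of these genes are known targets of E2F transcription factors and are transcribed mostly in late G1 and S phase, so their RNA in a culture depends on how many cells are in those phases as well as on transcription per cell. In bulk RNA, fewer cells in S phase and less of each RNA per cell cannot be told apart.

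Library totals ran from 28605187 to 38489992 counts. The vector SPNS2 sequence has a row apart from the native gene. The vector row held 24792 to 25752 counts in the SPNS2 libraries and 0 to 9 in the empty vector libraries. The check of the labels thus found no conflict. The native SPNS2 row held counts in the empty vector libraries as well, and was higher with SPNS2 by 0.25 on the log2 scale. Of 12 haematopoietic and myeloid markers, MPO stood at 25267 to 26583 CPM (the gene's counts scaled to a common library total of 1000000), and KIT, CD34, CD33, SPI1, RUNX1 and PTPRC were also present. KIT rose by 0.55 on the log2 scale and CD33 fell by 0.71. PTPRC (0.26) and RUNX1 (0.13) also rose, and CD34 (-0.25) and LYZ (-0.32) also fell, so several of these markers themselves moved with SPNS2. MPO, SPI1, CBFB and ELANE were not called. LYZ was scarce, at 5.87 to 8.88 CPM, and AZU1 had 386 counts in SPNS2 library 2 and 0 in each of the others. MYH11, part of the fusion, had 39 counts over the 6 libraries and did not pass the filter. How reads of the fusion transcript were counted is not given in the sources used here, so the fusion itself was not checked. Of 17 markers of other cell types, 13 were under 1 CPM in every library, 4 of these with no count, whereas EPCAM reached 119 to 143 CPM. The summed level of these 17 markers was 128 to 135 CPM with the empty vector and 149 to 152 CPM with SPNS2. Without EPCAM it was 7.92 to 8.50 and 8.05 to 8.90 CPM, ranges that overlap. The part of EPCAM in the results below was not tested.

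Replication genes were lower with SPNS2 as a group, mostly by a small amount. Of the 44 genes, 35 fell, 0 rose and 9 were not called, at an adjusted p under 0.05 in the edgeR quasi-likelihood test with Benjamini-Hochberg adjustment over all 13308 features tested. Across all features tested, 24.5% were called, 12.6% as lower and 11.9% as higher. The median log2 fold change of the 44 genes (SPNS2 minus empty vector) was -0.20, against 0.00 for all features tested, and 43 of the 44 values were below 0. No gene fell by more than 23.7% (MCM10), and the values ran from -0.39 to 0.05. In 38 of the 44 genes every SPNS2 library lay below every empty vector library, a pattern found in 20.3% of all features (40.1% for groups that do not overlap in either direction). The members were picked with earlier results of these data known, so these counts describe them and are no independent support.

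**Figure D1:**
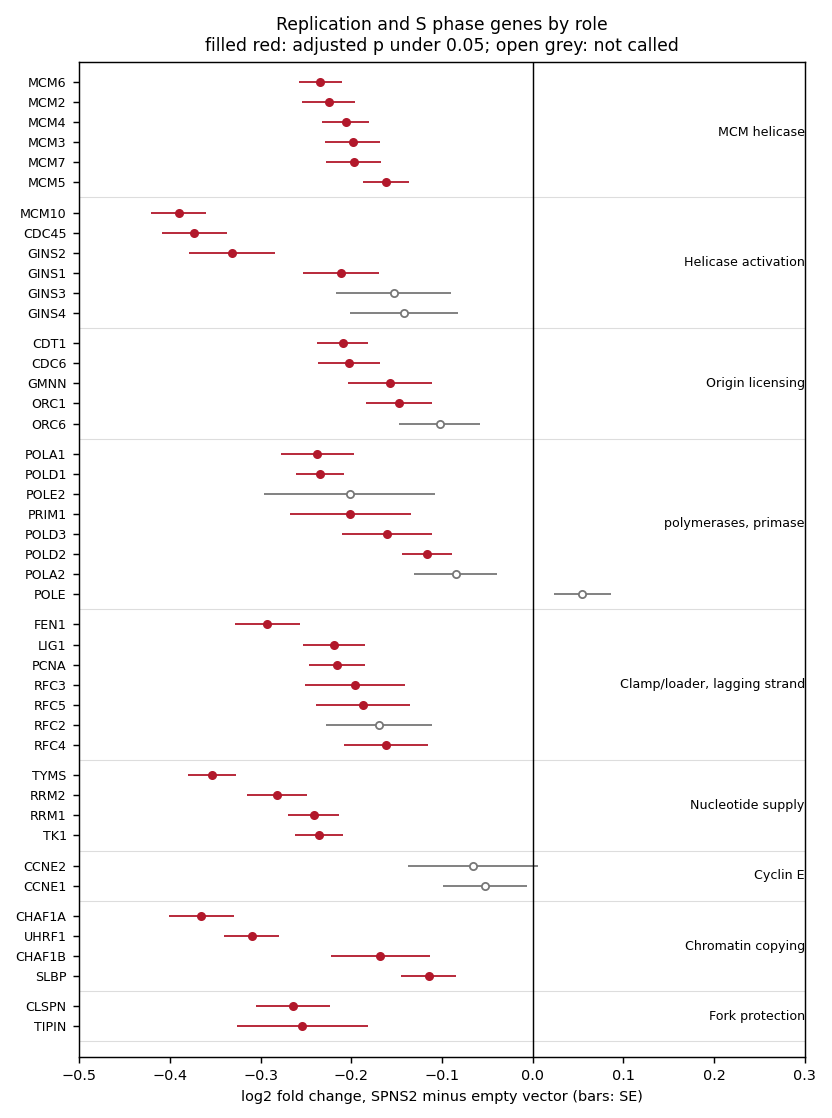
Log2 fold change (x axis, SPNS2 minus empty vector) with its standard error for each of the 44 genes (y axis), arranged by role; filled red points have an adjusted p under 0.05. The 35 called genes all lie left of 0, MCM10 lies farthest left at -0.39, and POLE is the single gene to the right of 0.

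The libraries of each group were alike. Summed over the 44 genes, the level was 5369.8, 5229 and 5209 CPM in empty vector libraries 1, 2 and 3 and 4598, 4625 and 4639 CPM in SPNS2 libraries 1, 2 and 3. These sums average 5269 ± 87.5 and 4621 ± 20.9 CPM (SD, n = 3 each), and the groups do not overlap. Relative to the empty vector mean, the median gene was at -0.21, -0.22 and -0.21 on the log2 scale in the 3 SPNS2 libraries. Empty vector library 1 held the highest value for 24 of the 44 genes, so it was the library that stood slightly above the rest, and the fold changes were recomputed without it and without each other library. Of the 35 falls, 25 were called in all 12 alternative fits, and the other 10 lost their call in at least 1 fit with a library left out. Those 10 are named with their values below.

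**Figure D2:**
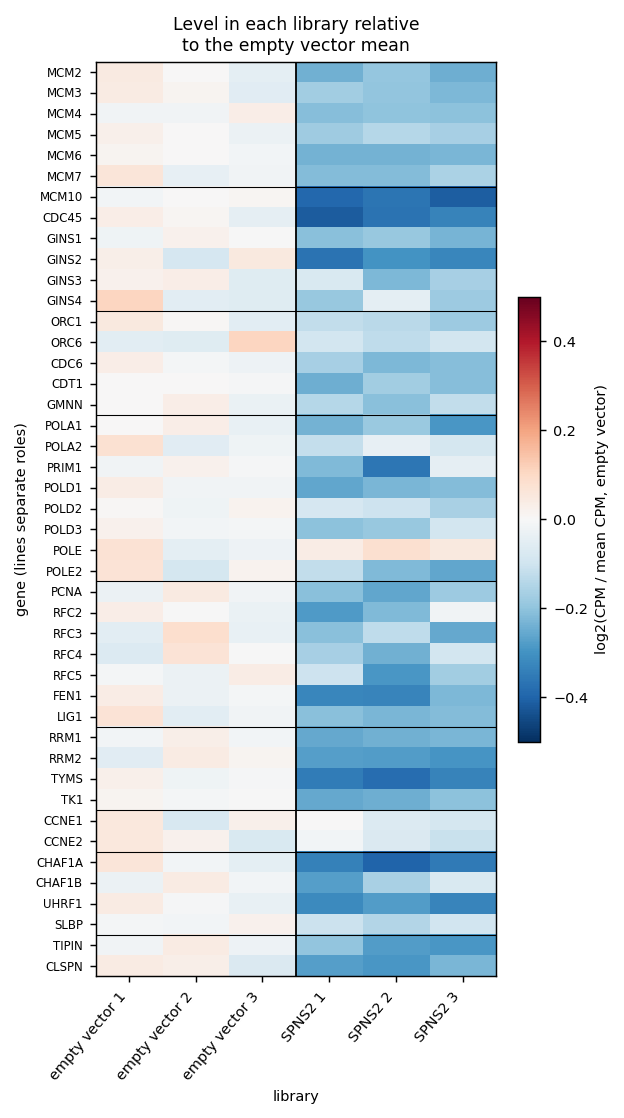
Level of each gene (rows, in the order of their roles) in each library (columns) as log2 of CPM over the empty vector mean. Blue fills the 3 SPNS2 columns in nearly every row, while POLE stays at or above 0 there and CCNE1 and CCNE2 stay pale.

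Abundant members were called more often than scarce ones. Among the 22 genes at a mean of at least 50 CPM, 21 fell, and POLE was the exception. Features of the whole table at that level were called lower in 22.6% of cases. Among the 22 genes under 50 CPM, 14 fell, against 8.51% of all features under that level. The median log2 fold changes of the abundant and scarce genes were -0.23 and -0.17. The 8 scarce genes that were not called all had values below 0.

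Promoter sequences are shown because the genes moved together and because cell cycle genes are known to be controlled through short promoter elements. RefSeq promoters on GRCh38.p14, from 250 bases before to 50 bases after each start, were found for 39 of the 44 genes, in 51 entries. They were searched on both strands for the E2F-type letters TTTGGCGC, TTTCCCGC, TTTCGCGC and TTTGCCGC, for CCAAT, the core of the element bound by NF-Y, and for TTTGAA, a form of the cell cycle homology region known from genes of G2 and mitosis. E2F-type letters stood in 43.1% of the replication promoters, in 3.31% of all 35116 promoters and in 4.83% of the 14813 promoters of features tested. CCAAT stood in 58.8%, 34.6% and 34.6% respectively, and TTTGAA in 1.96%, 15.2% and 10.5%. In 28 promoters of a list of 30 G2 and mitosis genes the order was the other way from the replication promoters, with TTTGAA in 78.6% and E2F-type letters in 14.3%. A match describes the letters and is no evidence of binding.

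The stretch of 160 bases that ends just before the start is printed 5′ to 3′ in the direction of transcription. The first 5 sequences belong to genes that fell and hold E2F-type letters, in capitals, with 4 overlapping matches in MCM6 that form a pair of repeats.
MCM6 (chr2:135876444-135876603, minus strand): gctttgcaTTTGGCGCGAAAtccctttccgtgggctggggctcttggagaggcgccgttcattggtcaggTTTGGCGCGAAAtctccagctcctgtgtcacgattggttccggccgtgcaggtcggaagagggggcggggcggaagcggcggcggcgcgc
GINS2 (chr16:85688955-85689114, minus strand): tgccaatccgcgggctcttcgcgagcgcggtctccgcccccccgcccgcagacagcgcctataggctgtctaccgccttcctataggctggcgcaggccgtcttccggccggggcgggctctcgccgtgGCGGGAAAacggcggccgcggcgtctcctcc
CDT1 (chr16:88803629-88803788, plus strand): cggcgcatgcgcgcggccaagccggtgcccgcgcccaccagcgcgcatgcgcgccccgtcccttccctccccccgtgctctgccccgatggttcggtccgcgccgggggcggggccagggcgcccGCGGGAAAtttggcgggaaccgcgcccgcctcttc
POLA1 (chrX:24693758-24693917, plus strand): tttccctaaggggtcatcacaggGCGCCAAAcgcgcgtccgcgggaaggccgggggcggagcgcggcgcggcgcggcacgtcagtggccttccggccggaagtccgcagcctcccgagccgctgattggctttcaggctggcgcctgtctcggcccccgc
TYMS (chr18:657493-657652, plus strand): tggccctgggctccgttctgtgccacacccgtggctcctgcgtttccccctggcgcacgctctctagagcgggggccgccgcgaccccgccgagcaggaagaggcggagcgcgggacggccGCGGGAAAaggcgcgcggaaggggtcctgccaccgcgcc
The next sequences belong to MCM10 (log2 fold change -0.39) and CHAF1A (-0.37), whose falls were close to those of TYMS (-0.35) and GINS2 (-0.33). MCM10 and CHAF1A hold no E2F-type letters in the 250 bases before the start, and here capitals mark CCAAT on either strand. CCAAT also stands, unmarked, in the 250 bases before the start of MCM6, GINS2, POLA1 and POLE, but not of CDT1, TYMS and POLA2. The genes printed are examples.
MCM10 (chr10:13161398-13161557, plus strand): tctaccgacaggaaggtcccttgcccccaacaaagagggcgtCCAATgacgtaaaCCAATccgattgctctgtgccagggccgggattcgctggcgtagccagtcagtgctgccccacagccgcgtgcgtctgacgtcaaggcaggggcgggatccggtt
CHAF1A (chr19:4402480-4402639, plus strand): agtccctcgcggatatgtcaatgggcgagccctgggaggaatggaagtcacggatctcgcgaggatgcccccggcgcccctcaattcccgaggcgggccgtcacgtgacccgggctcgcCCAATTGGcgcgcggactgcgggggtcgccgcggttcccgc
The last sequences, with E2F-type letters in capitals again, belong to POLA2 and POLE, which were not called.
POLA2 (chr11:65261802-65261961, plus strand): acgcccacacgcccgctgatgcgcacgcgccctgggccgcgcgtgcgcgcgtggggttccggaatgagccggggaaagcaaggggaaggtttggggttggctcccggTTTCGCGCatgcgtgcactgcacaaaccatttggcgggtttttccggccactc
POLE (chr12:132687343-132687502, minus strand): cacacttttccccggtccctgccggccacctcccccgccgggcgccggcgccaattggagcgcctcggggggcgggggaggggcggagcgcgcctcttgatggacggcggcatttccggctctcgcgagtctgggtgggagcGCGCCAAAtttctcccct
Changes of genes with and without the letters are given as a description, with no test. The 21 genes with E2F-type letters had a median log2 fold change of -0.21 with 17 called lower, and the 18 genes without them had a median of -0.19 with 15 called lower. For CCAAT the medians were -0.22 over 24 genes with it and -0.20 over 15 genes without it, with 22 and 10 called lower.

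The 6 subunits of the MCM2 to MCM7 helicase ring fell together and by nearly the same amount, with log2 fold changes from -0.23 (MCM6) to -0.16 (MCM5). MCM6 had 264, 262 and 259 CPM in the empty vector libraries and 222, 222 and 223 CPM in the SPNS2 libraries. All SPNS2 values of MCM6 were below all empty vector values, and the spread within each group was a few CPM (log2 fold change -0.23, SE 0.0236, adjusted p = 5.81e-05). MCM2 went from 409 ± 13.5 to 350.0 ± 7.03 CPM and MCM7 from 487 ± 18.0 to 425 ± 9.94 CPM (SD, n = 3 each). MCM3 fell by 0.20 and MCM4 by 0.21 on the log2 scale. All 6 kept their call without any single library.

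Of the 6 genes for factors that turn the loaded ring into a running helicase, 4 fell and 2 were not called. MCM10, which helps the helicase start to unwind, had 69.5, 70.4 and 70.8 CPM with the empty vector and 53.4, 54.5 and 52.7 CPM with SPNS2. The groups of MCM10 stood well apart, and the change was the lowest of the 44 genes (log2 fold change -0.39, SE 0.0303, adjusted p = 1.08e-05). CDC45, the helicase subunit whose loading marks origin firing, had 66.3, 65.3 and 62.8 CPM against 48.5, 50.1 and 51.4 CPM, and fell by 0.37 on the log2 scale. Of the 4 GINS subunits, GINS2 fell by 0.33 and GINS1 by 0.21. GINS3 had 13.9, 14.0 and 13.1 CPM with the empty vector and 13.0, 11.7 and 12.2 CPM with SPNS2; its groups just failed to touch, and it was not called (log2 fold change -0.15, 95% interval -0.29 to -0.01, adjusted p = 0.104). GINS4 had 28.999, 25.9 and 25.8 CPM against 23.6, 26.0 and 23.7 CPM, with overlapping groups (log2 fold change -0.14, 95% interval -0.27 to -0.01, adjusted p = 0.111). The intervals of GINS3 and GINS4 include the value of GINS1 but not that of GINS2, and differences between the subunits were not tested.

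Of 5 licensing genes, 4 fell, with a median log2 fold change of -0.16 over the 5. CDT1, which brings MCM to origins and is destroyed in S phase, had 154, 153 and 153 CPM with the empty vector and 129.5, 136 and 132 CPM with SPNS2, without overlap (log2 fold change -0.21, SE 0.0279, adjusted p = 0.000365). CDC6, its partner in loading, fell by 0.20, geminin (GMNN), the inhibitor of CDT1, by 0.16 and ORC1, the subunit of the origin recognition complex that varies over the cell cycle, by 0.15 on the log2 scale. ORC6 had 49.1, 48.8 and 54.7 CPM against 47.8, 46.6 and 47.8 CPM and was not called (log2 fold change -0.10, 95% interval -0.20 to 0.00, adjusted p = 0.123); its high empty vector value came from library 3. The ORC1 call was lost on omission of empty vector library 1 (adjusted p = 0.0570) or of SPNS2 library 3 (0.0551). The GMNN call was lost on omission of empty vector library 1 (0.0574) or 2 (0.0652) and of SPNS2 library 1 (0.0696) or 2 (0.107).

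The replicative polymerases did not move as a block. POLA1, the catalytic subunit of polymerase alpha, had 38.3, 39.1 and 37.3 CPM with the empty vector and 32.5, 33.6 and 31.2 CPM with SPNS2 (log2 fold change -0.24, SE 0.0407, adjusted p = 0.00172). POLD1, the catalytic subunit of polymerase delta, had 291, 281 and 280.3 CPM against 237, 243 and 244 CPM (log2 fold change -0.23, SE 0.0265, adjusted p = 0.000127). Both genes had SPNS2 values below all empty vector values. POLE, the catalytic subunit of polymerase epsilon and the gene with the highest mean CPM of the 44, had 541, 498 and 506 CPM with the empty vector and 528, 544 and 533 CPM with SPNS2. Its groups overlapped, because empty vector library 1 lay among the SPNS2 values (log2 fold change 0.05, 95% interval -0.01 to 0.12, adjusted p = 0.239). With omission of empty vector library 1, POLE was called as higher (log2 fold change 0.09, adjusted p = 0.0212), and in the other 11 alternative fits it was not called.

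A comparison within each library, chosen after the values were seen, sets POLE against the other catalytic subunits. The ratio of POLE to POLD1 CPM was 1.86, 1.77 and 1.80 with the empty vector and 2.22, 2.24 and 2.18 with SPNS2. The ratio was higher in all 3 SPNS2 libraries, by 0.29 on the log2 scale. POLE to POLA1 also differed by 0.29, whereas POLD1 to POLA1 differed by 0.00. In a two-sided exact permutation test over libraries the p-values were 0.1, 0.1 and 0.9, and 0.15, 0.15 and 0.9 after Benjamini-Hochberg adjustment over the 3 ratios; 0.1 is the smallest p that 3 libraries against 3 can give, so this design cannot reach 0.05.

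Of the other polymerase and primase subunits, 3 fell and 2 were not called. POLD2, the second subunit of polymerase delta, fell by 0.12 and POLD3 by 0.16 on the log2 scale. PRIM1, the primase that starts each RNA primer, had 30.5, 31.4 and 30.8 CPM against 26.5, 24.1 and 29.9 CPM, with SPNS2 library 3 close to the empty vector values (log2 fold change -0.20, adjusted p = 0.0497). POLA2, the regulatory subunit of polymerase alpha, had 35.9, 32.7 and 33.6 CPM against 31.4, 33.1 and 32.1 CPM, with overlapping groups (log2 fold change -0.09, 95% interval -0.18 to 0.01, adjusted p = 0.206). POLE2, the second subunit of polymerase epsilon, was scarce, with 6.61, 5.94 and 6.39 CPM against 5.80, 5.41 and 5.28 CPM (log2 fold change -0.20, 95% interval -0.41 to 0.00, adjusted p = 0.148). The PRIM1 call was lost on omission of empty vector library 1 (adjusted p = 0.0809), 2 (0.110) or 3 (0.103) and of SPNS2 library 1 (0.135) or 2 (0.152). The POLD3 call was lost on omission of empty vector library 1 (0.0812), 2 (0.0505) or 3 (0.0669) and of SPNS2 library 1 (0.121) or 2 (0.112).

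**Figure D3:**
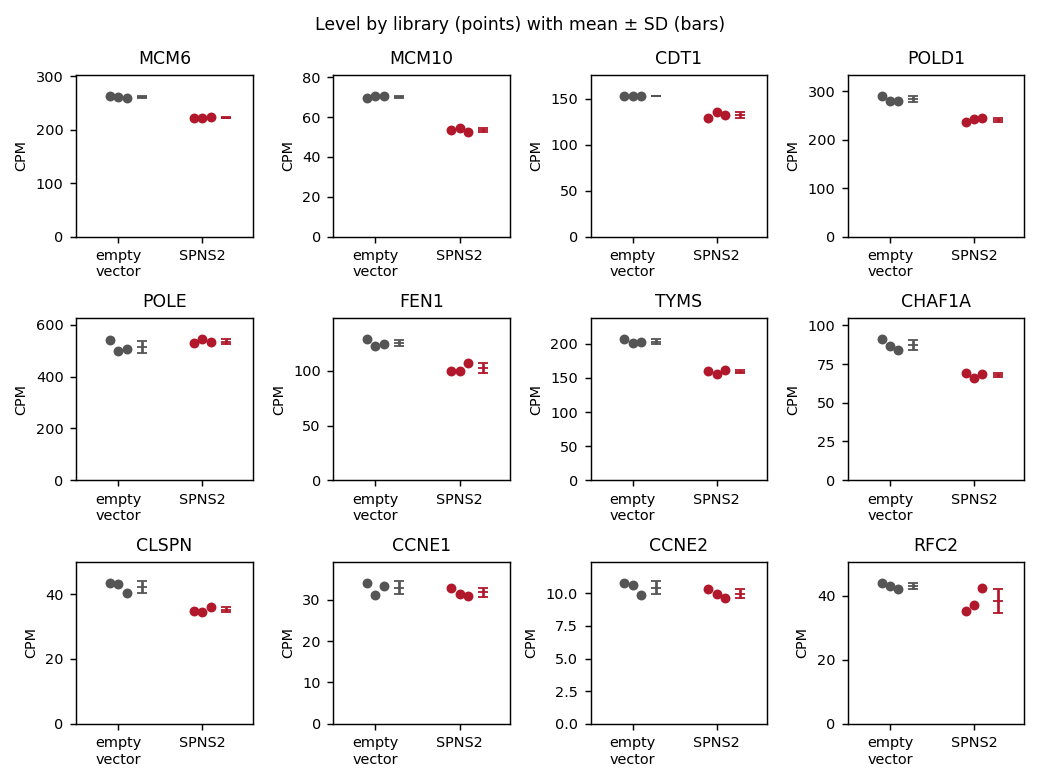
CPM (y axis, from 0) of 12 of the genes in each library (points) with the mean and SD of 3 libraries (bars) for the empty vector and SPNS2. MCM10, TYMS and CHAF1A show groups far apart relative to their spread, while POLE, CCNE1, CCNE2 and RFC2 show groups that overlap.

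Of 7 genes for the sliding clamp, its loader and the enzymes that finish the lagging strand, 6 fell and 1 was not called. Their log2 fold changes ran from -0.29 (FEN1) to -0.16 (RFC4). FEN1, the nuclease that trims Okazaki fragments, had 129, 123 and 125 CPM with the empty vector and 100.1, 99.9 and 108 CPM with SPNS2 (log2 fold change -0.29, SE 0.0357, adjusted p = 0.000214). FEN1 exons overlap those of FADS2 on the same strand in GENCODE 29, so reads there can be counted for either gene. LIG1, which seals the fragments, fell by 0.22 and PCNA, the clamp, by 0.22, from 178 ± 4.74 to 154 ± 4.07 CPM (SD, n = 3 each). The clamp loader subunits RFC3, RFC4 and RFC5 fell by 0.20, 0.16 and 0.19 on the log2 scale. RFC2 had 44.0, 43.0 and 42.1 CPM against 35.4, 36.9 and 42.5 CPM and was not called (log2 fold change -0.17, 95% interval -0.30 to -0.04, adjusted p = 0.0552). Its value in SPNS2 library 3 lay within the empty vector range, and with that library left out RFC2 was called lower (log2 fold change -0.25, adjusted p = 0.00388). With all 6 libraries it was also called lower without the filter on low counts (adjusted p = 0.0238) and by DESeq2 (adjusted p = 0.0493).

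The clamp loader calls depended on which libraries were in the fit. RFC3 was not called on omission of empty vector library 2 (adjusted p = 0.0647) or of SPNS2 library 1 (0.0756) or 3 (0.0852). RFC4 was not called on omission of empty vector library 2 (0.0976) or 3 (0.0724) or of SPNS2 library 1 (0.0786) or 2 (0.102). RFC5 was not called on omission of empty vector library 3 (0.0773) or of SPNS2 library 2 (0.0742) or 3 (0.0548). FEN1, LIG1 and PCNA were called in each of these fits.

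All 4 enzymes of nucleotide supply fell and kept their calls without any single library. TYMS, thymidylate synthase, which makes thymidylate for DNA, had 207, 200.7 and 203 CPM with the empty vector and 159.7, 156 and 162 CPM with SPNS2. The groups of TYMS did not overlap, and the gap between them was far larger than the spread within either (log2 fold change -0.35, SE 0.0266, adjusted p = 8.11e-06), which was the smallest p of the 44 genes. RRM2, the S phase subunit of ribonucleotide reductase, had 81.2, 86.9 and 85.3 CPM against 69.7, 69.6 and 68.9 CPM and fell by 0.28 on the log2 scale. RRM1, its large subunit, fell by 0.24 and thymidine kinase TK1 by 0.24.

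The E-type cyclins, which drive CDK2 at entry into S phase, had the values nearest to 0 among the 43 genes below it, and neither was called. CCNE1 had 34.1, 31.2 and 33.5 CPM with the empty vector and 32.9, 31.4 and 31.0 CPM with SPNS2, with groups that overlapped in part (log2 fold change -0.05, 95% interval -0.16 to 0.05, adjusted p = 0.456). CCNE2 had 10.8, 10.6 and 9.90 CPM against 10.3, 9.93 and 9.67 CPM (log2 fold change -0.07, 95% interval -0.22 to 0.09, adjusted p = 0.556). The interval of CCNE1 lies above the median of the 44 genes and that of CCNE2 includes it, so a fall of CCNE2 as large as the median is not excluded.

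All 4 genes listed under chromatin copying fell. CHAF1A, the large subunit of the histone chaperone CAF-1, had 91.0, 86.5 and 84.4 CPM with the empty vector and 69.0, 66.1 and 68.4 CPM with SPNS2 (log2 fold change -0.37, SE 0.0359, adjusted p = 5.27e-05). UHRF1, which brings DNA methylation to newly copied strands, had 168, 162 and 158 CPM against 130.4, 134 and 129.6 CPM (log2 fold change -0.31, SE 0.0303, adjusted p = 5.11e-05). CHAF1B, the partner of CHAF1A, fell by 0.17 and SLBP, the protein that binds the stem-loop of histone mRNAs, by 0.11 on the log2 scale. The CHAF1B call was lost on omission of empty vector library 1 (adjusted p = 0.0589), 2 (0.110) or 3 (0.0870) and of SPNS2 library 1 (0.172) or 2 (0.0982). The SLBP call was lost on omission of empty vector library 3 (0.0578) or of SPNS2 library 2 (0.0756).

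Histone transcripts themselves were measured only where they carry a poly(A) tail. Of 15 histone genes with a replication-type symbol that passed the filter, 5 rose and 0 fell, with a median log2 fold change of 0.69, at means of at most 4.06 CPM. Of all features tested, 11.9% rose and 12.6% fell. Some of these histone genes, such as HIST2H2AA3 and HIST2H2AA4, are near-identical copies between which reads can be split. H2BC5 rose by 2.01 and H2BC21 by 1.06 on the log2 scale, in the opposite direction to the replication genes. Both were scarce. H2BC5 had 0.19 to 0.31 CPM with the empty vector and 0.89 to 1.19 CPM with SPNS2, and H2BC21 had 0.98 to 1.52 and 2.58 to 3.12 CPM.

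Both genes of fork protection fell. CLSPN, claspin, which links stalled forks to the checkpoint kinase CHEK1, had 43.6, 43.2 and 40.3 CPM with the empty vector and 35.0, 34.6 and 36.2 CPM with SPNS2 (log2 fold change -0.26, SE 0.0407, adjusted p = 0.000882). TIPIN, which travels with the fork as the partner of TIMELESS, fell by 0.25 on the log2 scale at a level of 10.4 CPM with the empty vector. The TIPIN call was lost on omission of empty vector library 1 (adjusted p = 0.0536), 2 (0.0909) or 3 (0.0556) and of SPNS2 library 2 (0.0701) or 3 (0.0811).

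Subunits of one complex were unequal in level per length, and their order was the same in both groups. Levels here are CPM per kilobase of the longest coding transcript in GENCODE 29. Within the MCM ring, means with the empty vector ran from 54.5 (MCM4) to 158 CPM per kilobase (MCM7), and with SPNS2 from 47.2 to 138. The 4 GINS genes ran from 6.02 (GINS3) to 12.4 (GINS2) with the empty vector. In polymerase delta, POLD2 stood at 129.6 and POLD1 at 80.8, with POLD3 at 5.71. In polymerase epsilon, POLE stood at 65.7 and POLE2 at 3.52 CPM per kilobase with the empty vector, and at 68.2 and 3.07 with SPNS2.

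**Figure D4:**
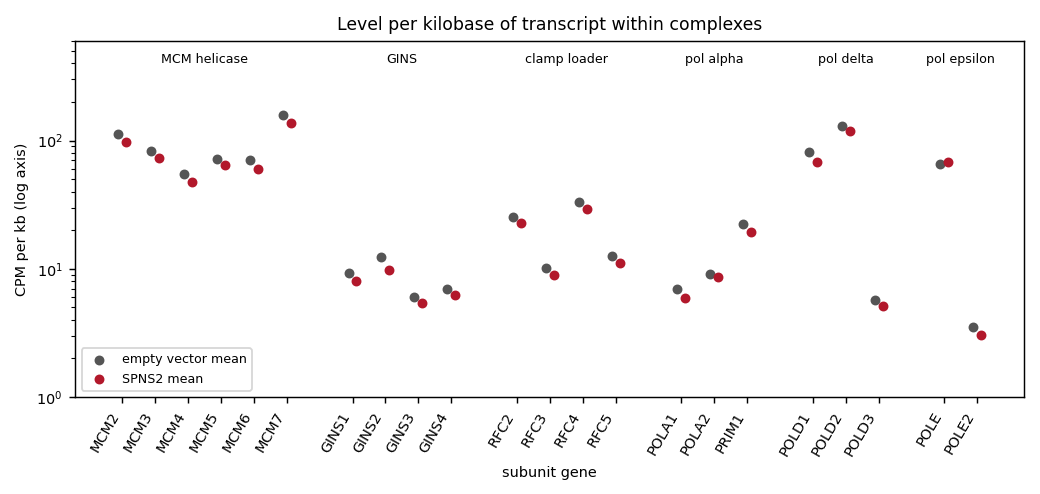
Mean level per kilobase of the longest coding transcript (log axis) for the subunit genes of 6 complexes, in the empty vector (grey) and SPNS2 (red) libraries. The highest and lowest subunits of each complex differ by more than the groups do, although some subunits, such as MCM5 and MCM6, lie closer together than that. POLE is the one gene whose SPNS2 point is the higher.

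Other replication genes, a list of 67 arranged by role, had a smaller median shift. Of 66 with a row and a test, 25 fell, 2 rose and 39 were not called, with a median log2 fold change of -0.10. That median lies between those of the 44 genes and of all features tested. The share that fell was 37.9%, against 12.6% of all features tested, of which 11.9% rose. A list of 12 housekeeping genes had a share of 41.7% that fell, so the share here is not particular to replication genes. The lists were not matched for level, as mean CPM reached 5371 among the housekeeping genes and 254 among the other replication genes. The median log2 fold change of the housekeeping genes was -0.05.

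In origin firing, RECQL4, a helicase needed for initiation, fell from 189 ± 5.03 to 152 ± 6.36 CPM, TICRR (treslin) from 45.0 ± 1.35 to 36.9 ± 1.41 CPM and TOPBP1, their partner, by 0.16 on the log2 scale (SD, n = 3 each). ORC4, a core origin recognition subunit, rose by 0.14 (adjusted p = 0.0245), but not on omission of empty vector library 1 (0.0921) or 3 (0.0575) or of SPNS2 library 1 (0.0564) or 2 (0.0921). Of 15 genes in this role, 6 fell and 1 rose.

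Among 6 further polymerase genes, POLQ, the polymerase of end joining, fell by 0.31 on the log2 scale. POLD4, the small subunit of polymerase delta, rose by 0.25 (adjusted p = 0.0163), from 26.4 ± 1.91 to 31.4 ± 2.19 CPM (SD, n = 3 each), and was not called on omission of SPNS2 library 1 (0.0742). It thus differed in sign from POLD1, POLD2 and POLD3.

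Of 12 genes for clamp loading, single-strand binding and the lagging strand, 5 fell. RNASEH2C and RNASEH2A, subunits of the ribonuclease that removes RNA from DNA, fell by 0.15 and 0.14, and the nuclease DNA2 by 0.17 on the log2 scale. The RNASEH2A call was lost without SPNS2 library 2 (adjusted p = 0.0553), and that of DNA2 on omission of empty vector library 1 (0.0533) or of SPNS2 library 1 (0.0508) or 3 (0.0548). The 3 subunits of replication protein A, which coats single-stranded DNA, were not called: RPA1 was at -0.04, RPA2 at -0.07 and RPA3 at -0.14 on the log2 scale, values named after they were seen.

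In nucleotide supply, 3 of 8 further genes fell: DTYMK, thymidylate kinase, by 0.30, NME1 by 0.14 and SAMHD1, which degrades deoxynucleotides, by 0.15 on the log2 scale. SAMHD1 was called narrowly (adjusted p = 0.0473) and was not called on omission of empty vector library 1 (0.0561), 2 (0.0552) or 3 (0.146) or of SPNS2 library 1 (0.113) or 3 (0.155). Of 8 cyclins, kinases and degradation factors, 4 fell, with CDC25A, the phosphatase that activates CDK2, from 52.2 ± 0.668 to 41.1 ± 1.38 CPM (SD, n = 3 each), CCNA2 by 0.25 and CDK2 by 0.17 on the log2 scale.

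In chromatin copying, 4 of 8 tested genes fell, among them the histone chaperone NASP by 0.22, the maintenance methyltransferase DNMT1, which works with UHRF1, by 0.24, and CDCA7 by 0.16. In fork protection 2 of 9 fell, TONSL by 0.27 and TIMELESS, the partner of TIPIN, by 0.24 on the log2 scale. The shares that fell were 22.2% in this role and 16.7% among the further polymerase genes. Both are near the whole table's shares, 12.6% of all features tested and 22.6% of those at a mean of at least 50 CPM.

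**Figure D5:**
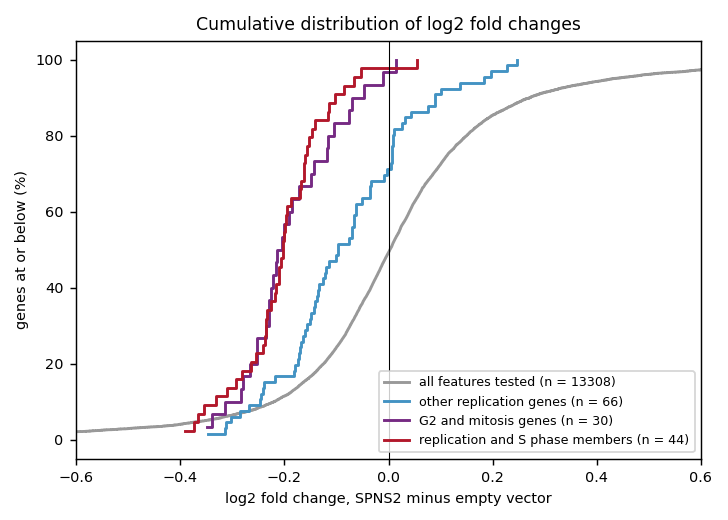
Cumulative share of genes (y axis, percent) at or below each log2 fold change (x axis) for all 13308 features tested, the 66 other replication genes, 30 G2 and mitosis genes and the 44 replication and S phase genes. The last curve crosses its middle at -0.20, beside that of the G2 and mitosis genes at -0.21, and the other replication genes cross at -0.10.

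Genes of later cell cycle stages showed a shift of the same size. In the list of 30 G2 and mitosis genes, 21 fell and 0 rose, with a median log2 fold change of -0.21, beside -0.20 for the S phase genes. TOP2A and PLK1 fell by 0.31 and 0.34 on the log2 scale. The 12 housekeeping genes had a median of -0.05, with 5 called lower and 1 higher. The shares called lower were 70.0% of the G2 and mitosis genes, 41.7% of the housekeeping genes and 12.6% of all features tested.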

How the data were processed

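Polyadenylated RNA of 3 empty vector and 3 SPNS2 libraries of ME-1 cells was sequenced from TruSeq Stranded mRNA libraries, per the labels' protocols. The authors deposited 1 table of estimated counts per gene in whole numbers; Salmon is the tool listed, with no version, per the submitters' processing notes. The build, the annotation and whether counting used strand are each not given in the sources used here. Exons of 9 of the 44 genes overlap those of another tested gene in GENCODE 29, 8 of them on the opposite strand (among them TYMS with ENOSF1 and RFC4 with EIF4A2), and reads there can be counted for either gene.

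Rows were given symbols through their unversioned Ensembl identifiers, from a gene name table and GENCODE 29. Rounding changed 0 values. Features were filtered with filterByExpr (minimum count 10, minimum total 15), scaled by TMM and put through edgeR's quasi-likelihood test on group alone (edgeR 4.0.16, R 4.3.3), with Benjamini-Hochberg adjustment over 13308 features. A gene was called, and said to rise or fall, at an adjusted p under 0.05. Standard errors were derived from the size of each change and its F statistic, and 95% intervals use the degrees of freedom of that test. CPM use TMM-scaled totals, except for markers. A count of 0 allows up to 3 counts, or 0.0779 to 0.105 CPM per library, for counting error only. The biological coefficient of variation was 4.32%. Replicates differed beyond sampling noise (chi-square per degree of freedom 3.11 to 6.09), and 0 were counted as duplicates.

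The members, lists and tests were chosen with earlier results of these data known. Named with values in every library were, in each role, the gene with the smallest p, the gene with the largest change and each gene not called; of other replication genes, up to 3 with the smallest p in each role and those called against the trend. CDC45, PRIM1 and RRM2 fall outside that rule and were given in every library after their values were seen. Other members are named by fold change; histone and mitosis genes by the smallest p. Of the 67 other replication genes, ASF1B was not analysed here. The pipeline was tested on simulated counts. Alternatives were other size factors, no filter, DESeq2 1.42.0, limma voom (limma 3.58.1), the vector row left out, a replicate block, and each library left out.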

Additional observations from a re-analysis of the deposited data

How the results depend on the processing

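The count of replication and S phase genes that fell was 35 in the reported fit. It was 35 with RLE size factors, limma voom or the vector row left out, 36 without a filter and 32 with DESeq2, of which 31 were among the 35. With 1 library left out it was 27 to 32, and the count that rose was 0 to 1, the riser being POLE without empty vector library 1. Other replication genes that fell numbered 18 to 22 and those that rose 0 to 2 with 1 library left out; with DESeq2 1 rose. Over the whole table, 1079 to 1294 features were higher and 1167 to 1444 lower with 1 library left out. Of 791 values of named genes under alternatives, 724 kept their direction and their side of the threshold and 0 reversed a call; the cause of the lost calls was not tested, beyond the fewer libraries in the fits that left 1 out. In all fits 43 of the 44 genes stayed below 0.

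The replicate numbers are shared by the groups, but same-numbered libraries did not deviate together (correlations of deviations 0.06, -0.09 and -0.24 over 9942 features), so the numbers were not taken to pair the libraries. With a replicate block 32 of the 44 genes fell, and GMNN, POLD3 and TIPIN lost their call. At these depths and spreads, changes of scarce genes such as POLE2 and CCNE2 were resolved less finely than those of abundant ones.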
